A study of Caenorhabditis elegans with 2 samples.

Results

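One-directional promoter peaks of the nuclear hormone receptor NHR-237 are described here for the 5 autosomes of Caenorhabditis elegans. A peak was taken as one-directional when its summit lay in the promoter windows of protein-coding genes on one strand only. For each protein-coding transcript the window covered 500 bp before its 5′ end and 200 bp after it. Of the 1626 peaks kept by the irreproducible discovery rate (IDR) procedure, which asks whether peaks rank alike in repeated experiments, 1363 were autosomal. Of these, 593 (43.5%) were one-directional and are called members here. Another 318 (23.3%) were divergent, with windows of genes on both strands, and 452 (33.2%) were outside promoters. The class rests on annotation and not on peak strength. The data came from chromatin immunoprecipitation followed by sequencing in mixed-stage embryos of both sexes, with 2 biological replicates in a single group. The strain, OP228, carries the unc-119(ed3) mutation on chromosome III and the insertion wgIs228, which targets nhr-237 and yields the receptor as a fusion with eGFP. Embryos were sampled as whole organisms, so sites of different tissues cannot be told apart. Embryos lacking the fusion were not analysed here, and the files hold no expression values against which tissue markers could be checked.

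Nuclear hormone receptors are transcription factors that bind DNA through a pair of zinc fingers, and the family is greatly expanded in nematodes. In C. elegans many transcripts receive a spliced leader by trans-splicing, so the annotated 5′ end can lie downstream of the point where transcription starts. Genes can also be arranged in operons, in which a single promoter serves several genes in a row on the same strand. Each autosome has a gene-dense centre with little recombination and 2 arms with more recombination, more repeats and more members of fast-evolving gene families.

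The 8 sequences below are those of the strongest members whose central 101 bp held no annotated exon, on chromosomes other than I. They are from build ce11 (WBcel235, RefSeq sequence), are centred on the summit, and read 5′ to 3′ along the strand of the gene. Capitals mark 6-base words that were more frequent in the strongest than in the weakest members, whose shares follow further down.
cdc-48.1, chrII:10563526-10563626, minus strand: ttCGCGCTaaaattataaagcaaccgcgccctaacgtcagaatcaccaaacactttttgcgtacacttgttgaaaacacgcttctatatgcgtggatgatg
rpl-3, chrIII:3867521-3867621, plus strand: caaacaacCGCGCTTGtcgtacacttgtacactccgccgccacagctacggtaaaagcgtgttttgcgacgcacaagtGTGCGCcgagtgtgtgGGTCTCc
tasp-1, chrIII:10759199-10759299, plus strand: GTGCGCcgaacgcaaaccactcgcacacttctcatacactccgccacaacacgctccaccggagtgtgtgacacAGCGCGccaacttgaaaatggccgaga
rpl-35, chrIII:7854639-7854739, plus strand: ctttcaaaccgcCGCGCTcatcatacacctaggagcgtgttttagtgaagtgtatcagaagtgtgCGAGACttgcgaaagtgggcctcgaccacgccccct
iff-2, chrII:8561403-8561503, minus strand: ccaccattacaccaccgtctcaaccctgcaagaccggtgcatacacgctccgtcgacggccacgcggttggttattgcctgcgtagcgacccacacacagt
tos-1, chrV:9344253-9344353, minus strand: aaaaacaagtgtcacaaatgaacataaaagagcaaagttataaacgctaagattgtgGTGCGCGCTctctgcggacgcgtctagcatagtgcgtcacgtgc
hsp-1, chrIV:17278537-17278637, plus strand: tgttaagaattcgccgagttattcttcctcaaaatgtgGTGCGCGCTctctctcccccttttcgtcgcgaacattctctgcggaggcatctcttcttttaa
sec-61.G, chrV:10897328-10897428, minus strand: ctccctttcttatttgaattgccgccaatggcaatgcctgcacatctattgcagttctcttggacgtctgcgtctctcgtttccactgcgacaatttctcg

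The summits of the 15 strongest members all lay upstream of the 5′ end and between coding genes. The member of highest signal, at cdc-48.1 (WBGene00007352), had a signal value of 373 in replicate 1 and 424 in replicate 2. Its value in the IDR list was 793, and the gene product is an ATPase that pulls ubiquitin-marked proteins out of complexes. The signal value is the score that the authors' peak caller gave a peak, and it is comparable within a list only. The member at rpl-3 (WBGene00004414), which encodes a protein of the large ribosomal subunit, had 375 in replicate 1 and 400 in replicate 2. That at tasp-1 (WBGene00010480), named as a threonine aspartase, had 275 and 317. These 3 ranked 15 or higher in each replicate list. The next were rpl-35 (WBGene00004449, 227 in replicate 1 and 270 in replicate 2), iff-2 (WBGene00002065, a homologue of the translation factor eIF5A, 223 and 247) and tos-1 (WBGene00019466, 228 and 211). After them came F36A2.7 (WBGene00009454, 191 and 189) and dld-1 (WBGene00010794, 183 and 186), which encodes dihydrolipoyl dehydrogenase. The member at hsp-1 (WBGene00002005), a constitutive Hsp70 chaperone, had 168 in replicate 1 and 206 in replicate 2. That at sec-61.G (WBGene00001303), a subunit of the channel for secreted proteins, had 176 and 186. The other 5 of the 15 strongest were at rps-28, the cytochrome oxidase subunit genes cox-5A and cox-5B, eelo-2 and W08E12.7. Over the 15, signal ran between 147 and 375 in replicate 1 and between 158 and 424 in replicate 2, and every one ranked 56 or higher in replicate 1 and 59 or higher in replicate 2.

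The replicate lists were long, with 10872 peaks in replicate 1 and 30000 in replicate 2, so nearly every member met a peak in both. Of the 593, 586 (98.8%, 95% Clopper-Pearson interval 97.6 to 99.5) were overlapped by at least 1 bp in both replicate lists. The IDR procedure favours peaks that rank alike, so part of this share follows from the selection. Its settings here are unknown, and a few members had no match in 1 of the replicate lists. A stricter count was lower, with 419 of the 593 matched among the top 1626 peaks of both lists. In 3 pairs of neighbouring members, at mars-1, mog-4 and C34B4.2, both members matched the same peak in each replicate list. Among those 586 the signal had a median of 51.8 (highest 375) in replicate 1 and 57.6 (highest 424) in replicate 2. Across these peaks, which share 2 libraries and are not independent, Spearman's rho was 0.557 and Pearson's r on the log2 scale was 0.673. Without a match in replicate 1 were emb-5, vha-19, cdl-1 and gbas-1, and without a match in replicate 2 were mrpl-47, isw-1 and pch-2, which are named because they are so few. Their IDR signals were between 73.6 and 102. The 3 weakest members were at T07F10.3 (72.7), K02E2.11 (72.6) and exos-2 (72.6), an exosome subunit gene.

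**Figure D1:**
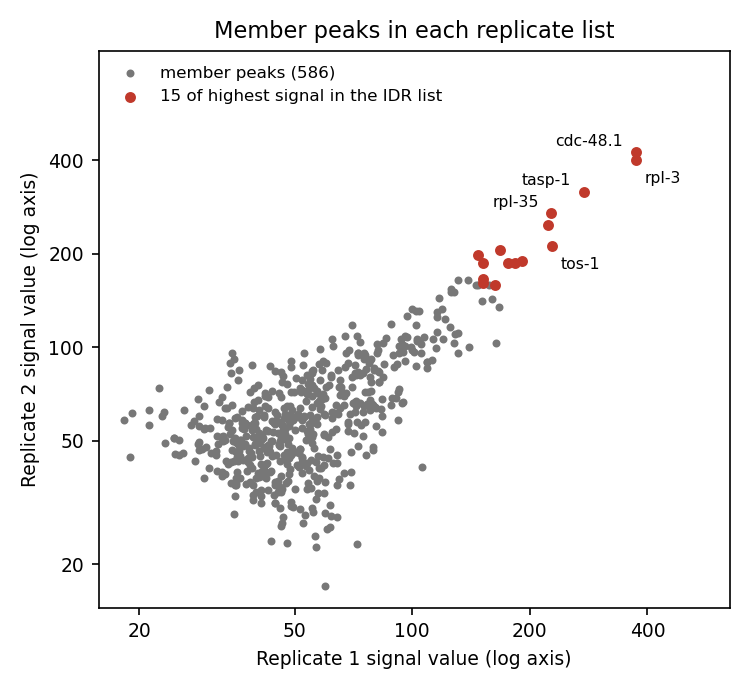
Signal value of 586 member peaks in replicate 1 (horizontal, log axis) and replicate 2 (vertical, log axis), each point being 1 peak. The 15 members of highest IDR signal (red) lie at the upper right, with cdc-48.1 at 373 and rpl-3 at 375 in replicate 1.

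Summits lay just upstream of the annotated 5′ end. The median member summit was 188 bp upstream of the nearest 5′ end of its gene, with quartiles at 292 and 104 bp upstream. In all, 551 of 593 (92.9%) were upstream and 42 were downstream. The bin from 200 to 100 bp upstream held 179 members, that from 300 to 200 bp held 136 and the last one before the 5′ end held 98. The outermost bin, 500 to 400 bp upstream, held 42, so counts declined towards the edge of the window. The median distance to the nearest 5′ end was 140 bp upstream for divergent peaks. The windows themselves bound these distances, so they were not tested. The median signal was between 92.3 and 113 over the 100-bp bins and showed no steady change with distance. Just inside the upstream edge were mars-1 (491 bp, signal 83.7), arp-11 (489 bp, 113) and sin-3 (487 bp, 109). Just outside it were unc-108 (504 bp, 183), K12H4.5 (506 bp, 574) and xnp-1 (507 bp, 83.8). Just inside the downstream edge were egl-30 (195 bp, 106) and nstp-10 (174 bp, 76.6), and just outside it were asic-2 (202 bp, 90.5) and T09B4.3 (211 bp, 82.6).

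**Figure D2:**
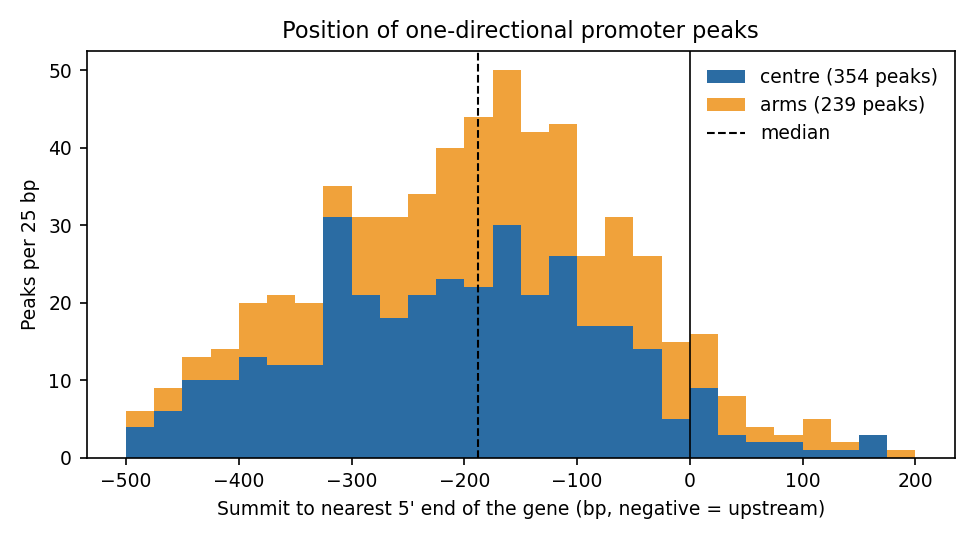
Distance from the summit to the nearest 5′ end of the gene (horizontal, bp, negative values upstream) against the number of member peaks per 25 bp, stacked for 354 peaks in chromosome centres (blue) and 239 in arms (orange). The counts are highest between 200 and 100 bp upstream, and the dashed line is the median, 188 bp upstream.

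Most summits were in sequence between coding genes. This was so for 478 members (80.6%). Another 53 (8.94%) lay in an intron and 37 (6.24%) in an exon of the gene whose window held them. A further 20 lay in an intron and 5 in an exon of another coding gene. Median signal was 106 between genes, 97.2 in an intron and 91.8 in an exon of the own gene. The 593 members lay in the windows of 588 genes, 3.41% of the 17242 autosomal protein-coding genes. The divergent peaks lay at 641 genes, or 3.72%. Only 1 gene was in the window of a member for 588 of the 593, and 2 genes on the same strand shared the other 5.

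Genes with a member were more often followed closely by another gene on the same strand than autosomal genes in general. The next non-overlapping coding gene was on the same strand and began within 500 bp for 213 of 588 (36.2%, interval 32.3 to 40.3). The share was 35.4% of the 641 genes at divergent peaks and 19.3% of the 17242 autosomal genes. Such close rows of genes include operons, but no operon annotation was used. The gene before was on the same strand for 306 of the 588 genes with a member and for 54.4% of all autosomal genes. It was on the same strand and within 500 bp for 140 genes (23.8%), against 19.4% of all autosomal genes. Divergent peaks require genes on both strands, so their 1.72% with a same-strand gene before them follows from the rule. The rule for members leaves out summits that are also in a window on the other strand. Their shares for the gene before are therefore not free of the rule either. Genes with a member spanned a median of 2680 bp, against 2002 bp for genes at divergent peaks and 1964 bp for all autosomal genes. Signal was similar whether or not the gene was so followed, with a median of 103 over 216 members that were and 105 over 377 that were not. The 216 were in chromosome centres in 66.2% of cases and the 377 in 56.0%. These shares are descriptions with no test.

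Chromosome centres, taken as the central 50% of each autosome, held 354 members (59.7%, interval 55.6 to 63.7), and arms held 239. The density was 8.58 members per Mb in centres (95% exact Poisson interval 7.71 to 9.52) and 5.79 in arms (5.08 to 6.57). Centres also hold more genes, 55.7% of the autosomal coding genes. Per gene the gap was narrower, with a member at 3.64% of centre genes (3.27 to 4.03) and 3.13% of arm genes (2.75 to 3.54). The intervals overlapped, and this difference was not tested. The shares did not go in one direction on all autosomes, and the centre and arm intervals overlapped on every autosome but V. On chromosome V, 2.59% of centre genes (2.02 to 3.27) and 1.35% of arm genes (0.925 to 1.90) had a member, and on II the shares were 4.02% and 3.08%. On III they were 4.93% and 4.27%. On chromosome I they were 4.79% in the centre and 5.21% in the arms, and on IV 2.67% and 3.53%. The right arm of V, with 9 members at 1162 genes (0.775%), was the sparsest of the 10 arms, and the left arm of I, with 35 at 521 genes (6.72%), the densest. By chromosome, the share of genes with a member was 4.97% on I, 4.66% on III, 3.57% on II, 3.02% on IV and 2.00% on V.

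**Figure D3:**
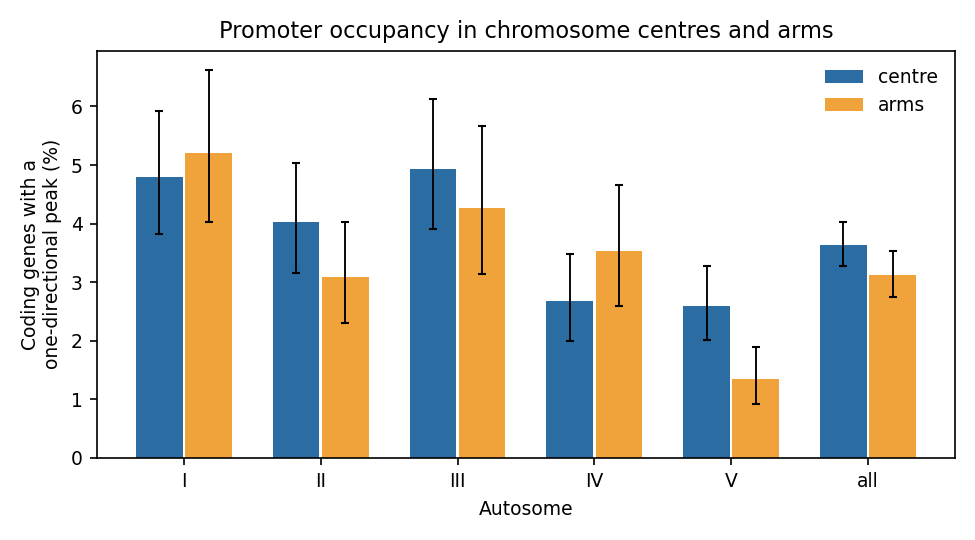
Percentage of protein-coding genes with a member peak in the promoter window (vertical) in the centre (blue, left) and arms (orange, right) of each autosome and of the 5 together. Error bars are 95% Clopper-Pearson intervals, and those of chromosome V do not overlap (2.59% in the centre and 1.35% in the arms).

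The strongest member in a centre was at cdc-48.1 on II, at rpl-3 on III, at tos-1 on V, at F36A2.7 on I and at sqd-1 on IV. In the arms it was at tasp-1 on III (585), dld-1 on IV (375), icd-2 on I (305), vig-1 on II (301) and Y39B6A.43 on V (244). The gene icd-2 encodes a subunit of the nascent polypeptide-associated complex, which meets new chains at the ribosome. The arms did not lack strong members. Median signal was 102 in centres and 106 in arms, 7 of the 15 strongest members were in arms, and the share in centres was 52.9% in the strongest quintile of members and 62.2% in the weakest. Members did not differ detectably from the other classes in this respect. The central share was 59.7% of members, 60.4% of divergent peaks and 60.2% of peaks outside promoters. The odds ratios were 0.972 (95% interval 0.728 to 1.30) against divergent peaks and 0.980 (0.757 to 1.27) against peaks outside promoters (Fisher's exact test, two-sided, adjusted exact p = 0.899 for both). Peaks are the units of this and the other tests below, so their p-values say nothing of variation between embryo preparations.

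Neither planned comparison of signal between members and the other classes passed the threshold. The median signal of members was 104 (quartiles 86.7 and 142), against 114 (88.4 and 168) for divergent peaks and 101 (82.5 and 129) for peaks outside promoters. Of the members, 292 of 593 (49.2%) were above the median of the autosomal IDR peaks, against 183 of 318 divergent peaks (57.5%). The odds ratio was 0.716 (0.538 to 0.950), and it missed the threshold after adjustment over 4 comparisons (Fisher's exact test, exact p = 0.0180, adjusted exact p = 0.0722). It passed with the upper quartile as the limit (odds ratio 0.647, adjusted exact p = 0.0171), and adjusted p over its alternatives ran between 0.0147 and 0.664. Against peaks outside promoters, of which 45.6% were above the median, the odds ratio was 1.16 (0.900 to 1.49, adjusted exact p = 0.521). In the strongest peaks of replicate 2 alone it was 1.62 (adjusted exact p = 5.65e-04) and in those of replicate 1 alone 1.42 (adjusted exact p = 0.0186), so the call depended on the list. Median signals in the replicate lists were 51.7 in replicate 1 and 57.8 in replicate 2 for members, 53.8 and 61.1 for divergent peaks, and 52.0 and 52.9 for peaks outside promoters. In replicate 1 members thus had the lowest median of the 3 classes.

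**Figure D4:**
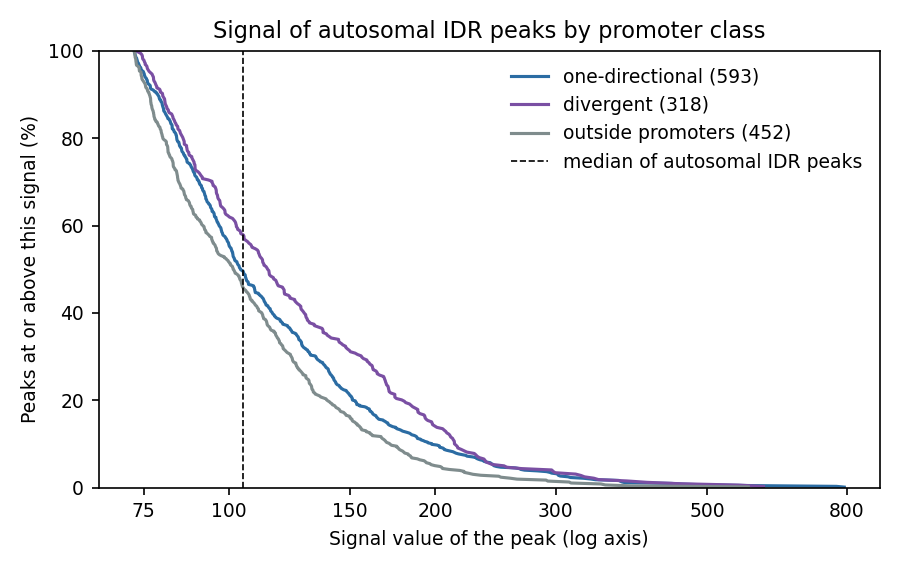
Percentage of peaks (vertical) at or above a given signal value (horizontal, log axis) for 593 one-directional, 318 divergent and 452 other autosomal IDR peaks. The curve of the members runs between the other 2 over most of the range, and the dashed line is the median of the autosomal IDR peaks.

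Of 27 gene lists, cytosolic ribosomal protein genes had both the highest count and the highest share with a member. Against the 3.41% of all autosomal genes, 25 of 81 cytosolic ribosomal protein genes (30.9%, interval 21.1 to 42.1) had a member. Another 38 had a divergent peak. After rpl-3, rpl-35 and rps-28 the highest was rpl-23, with 104 in replicate 1 and 131 in replicate 2. Their summits were 283 bp upstream for rpl-3, 445 bp for rpl-35, 428 bp for rps-28 and 335 bp for rpl-23. Over the 25 genes the summit was between 137 bp (rpl-25.2) and 445 bp upstream. The median signal over the 25 genes was 160, against 104 over all members. Translation factor genes had a member at 9 of 39 (23.1%), with iff-2 and 4 subunit genes of the initiation factor eIF3 among them (eif-3.B, eif-3.C, eif-3.E and eif-3.G). The gene eif-3.B had 121 in replicate 1 and 123 in replicate 2. Aminoacyl-tRNA synthetase genes had one at 3 of 31, namely mars-1, kars-1 and aars-2 (interval 2.04 to 25.8%). Mitochondrial ribosomal protein genes had one at 4 of 70 (5.71%), and the intervals of this list and of the synthetases hold the share over all genes. A divergent peak stood at 12 mitochondrial ribosomal protein genes (17.1%, against 3.72% of all genes), 12 translation factor genes and 2 synthetase genes. The lists are described by their counts, with no test.

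Genes of protein turnover were found in both promoter classes. Proteasome subunit genes had a member at 3 of 33 (pbs-3, rpt-1 and rpn-11) and a divergent peak at 14, and the interval for members (1.92 to 24.3%) holds the 3.41% of all genes. A list of genes related to ubiquitin and similar modifiers, taken by symbol, had a member at 11 of 74 (14.9%) and a divergent peak at 3. It is not limited to conjugation and removal, since it includes cdc-48.1. After cdc-48.1 the highest were the conjugating enzyme gene ubc-25 (81.5 in replicate 1 and 83.9 in replicate 2), ufd-3 (52.8 and 95.7) and usp-39 (34.6 and 95.5). Chaperone genes had a member at 10 of 66, where hsp-1 was followed by the DnaJ gene dnj-9 (99.4 and 100) and the co-chaperone gene sti-1 (92.3 and 101). The chaperonin subunit gene cct-2 was among the weaker ones (61.7 and 31.1). Divergent peaks stood at 16 chaperone genes.

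RNA processing, transport and respiration genes also carried members. Splicing genes had one at 11 of 68 (16.2%), led by the SR protein gene rsp-6 with 89.2 in replicate 1 and 94.5 in replicate 2 and by hrpa-1 with 67.3 and 109. Nuclear pore and transport genes had one at 6 of 40, and imb-3, an importin, was the highest (116 and 130). Secretory and endosomal sorting genes had one at 10 of 82, and after sec-61.G came sec-61.A (62.5 and 101), whose summit was 105 bp downstream of the 5′ end, and vps-4 (71.2 and 87.5). Respiratory chain genes had one at 7 of 55, led by cox-5A (152 and 187) and cox-5B (152 and 166), with the cytochrome c1 gene cyc-1 (82.4 and 77.5) next. Genes of RNA polymerase, its TAF cofactors and Mediator had one at 7 of 67, of which taf-4 (99.7 and 97.8) was the highest. Cell cycle and replication genes had one at 8 of 62, led by cdk-7 (120 and 106), and the others included mcm-2, mcm-4 and mcm-7, subunits of the replicative helicase. Actin and tubulin genes had one at 4 of 25, and the alpha-tubulin gene tba-2 (139 and 164) stood far above arx-2, cap-1 and act-2. Vacuolar ATPase genes had one at 2 of 18, with an interval (1.38 to 34.7%) that holds the 3.41% of all genes. A divergent peak stood at 15 splicing, 9 nuclear pore and transport, 9 secretory and sorting and 11 respiratory chain genes. It stood at 7 RNA polymerase, TAF and Mediator, 9 cell cycle and replication, 2 actin and tubulin and 3 vacuolar ATPase genes.

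**Figure D5:**
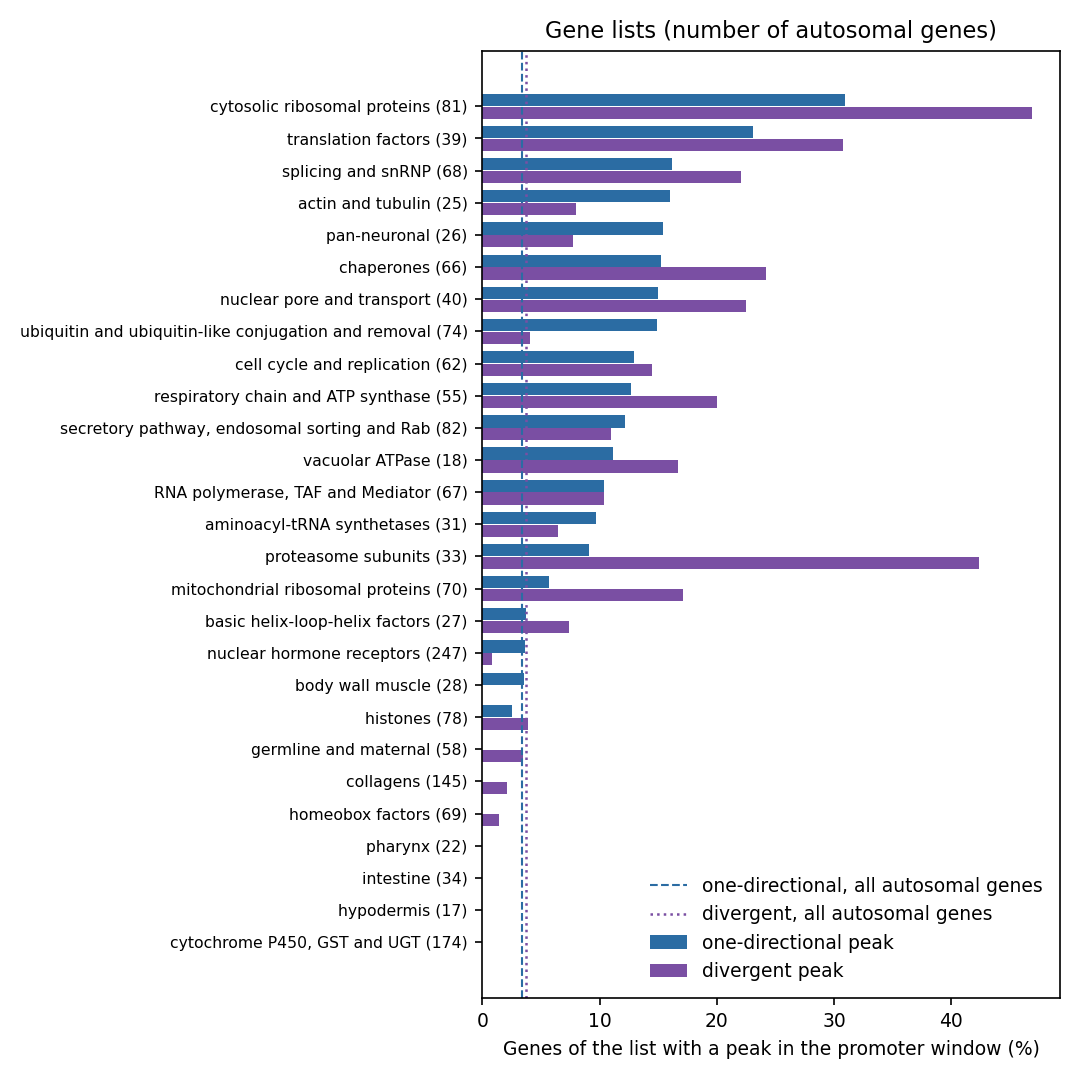
Percentage of the autosomal genes of each list with a member peak (blue, upper bar) or a divergent peak (violet, lower bar) in the promoter window, with list sizes in brackets. The lines are the shares of all autosomal genes, 3.41% for members and 3.72% for divergent peaks, and cytosolic ribosomal protein genes are highest at 30.9% for members and 46.9% for divergent peaks.

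Genes of the nuclear hormone receptor family, to which NHR-237 belongs, were near the background, with a member at 9 of 247 (3.64%, interval 1.68 to 6.80) and a divergent peak at 2. The highest were nhr-256 (55.5 in replicate 1 and 69.7 in replicate 2), nhr-34 (42.8 and 69.0), nhr-56 (38.9 and 54.1) and nhr-228 (37.1 and 54.7). Of the other 5, nhr-49, a regulator of fat metabolism, had an IDR signal of 85.7. No IDR summit lay in the promoter window of nhr-237 itself. Histone genes had a member at 2 of 78, his-37 (151 and 141), an H4 gene, and the linker histone gene hil-7 (IDR signal 117). The single basic helix-loop-helix gene was hlh-11 (47.1 and 50.6). Members were counted at 0 of 69 homeobox genes, 0 of 145 collagen genes and 0 of 174 genes of detoxifying enzymes (the cyp, gst and ugt families). These counts allow shares of up to 5.21%, 2.51% and 2.10%. Tissue lists were short. Pan-neuronal genes had a member at 4 of 26 (unc-16, unc-76, snb-1 and unc-108). That is 15.4%, with an interval (4.36 to 34.9%) above the 3.41% of all genes. The share rests on 4 genes of a list made by symbol, and the interval is not adjusted for the number of lists. Embryos were sampled whole, so the count does not place these sites in neurons. Body wall muscle genes had one at 1 of 28 (unc-112). The count was 0 of 34 for intestine, 0 of 17 for hypodermis, 0 of 22 for pharynx and 0 of 58 for germline and maternal genes, which allows up to 10.3%, 19.5%, 15.4% and 6.16%, so a share at the background was within each limit. In all, 144 of the 588 genes (24.5%) carried only a sequence name, against 44.5% of all autosomal coding genes.

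Short sequence motifs were counted on either strand within 50 bp of the summit, a window of 101 bp. The same length centred 188 bp upstream of the 5′ end of every autosomal coding gene served as the background. The motifs were textbook promoter elements or had been named by earlier results of these data. For the latter, a higher share than in all promoters partly follows from that choice. Differences between classes of these same peaks are not free of it either. GAGAGA was in 122 of 593 members (20.6%), against 13.8% of divergent peaks and 7.44% of all promoters. GCGTCTC was in 12.6%, 8.81% and 1.59% in that order, and CGAGACC was in 8.60%, 14.2% and 1.24%. The GC box GGGCGG was in 8.77% of members and 2.33% of all promoters, and CCCGCC in 8.60% and 2.04%. The counts overlap, since 20 members held both GGGCGG and CCCGCC, and 32 held both GAGAGA and GCGTCTC. Scarcer at members than in all promoters were TATAAA, the TATA box (5.06% against 13.2%), and TGATAA, which GATA factors bind (3.88% against 11.1%). So were TAATTA, which homeodomains bind (1.69% against 5.88%), TTTTTT (27.2% against 46.3%) and TTTCAG (5.73% against 17.2%). The part of base content in these shares was not tested. AGGTCA, a site bound by many nuclear receptors, was in 9 members (1.52%) and in 2.62% of all promoters. A match is a string of letters and not a measured site, and 136 members held none of the 14 motifs.

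Between members and divergent peaks, 0 of 14 motifs (0%) passed the threshold (Fisher's exact test, two-sided, Benjamini-Hochberg adjusted p under 0.05), and 3 had an unadjusted p under 0.05. These were TTTCAG, the splice acceptor consensus (5.73% against 11.3%, odds ratio 0.476, adjusted exact p = 0.0534), GAGAGA (odds ratio 1.61, adjusted exact p = 0.0580) and CGAGACC (odds ratio 0.571, adjusted exact p = 0.0580). Of 9 alternatives, 4 brought GAGAGA past the threshold, 3 TTTCAG and 1 CGAGACC. Over the alternatives the adjusted p ran between 0.00316 and 0.903 for GAGAGA, between 0.00316 and 0.752 for TTTCAG and between 0.00290 and 0.861 for CGAGACC. Against peaks outside promoters, a comparison added after the shares were seen, 5 of 14 motifs (35.7%) passed. Some motifs had been named from these same data, and the alternatives largely reuse the same peaks. The p-values here are therefore descriptive and not independent evidence. GAGAGA was in 20.6% of members and 46.2% of peaks outside promoters (odds ratio 0.301, adjusted exact p = 1.75e-17, at most 1.83e-11 over 9 alternatives). CGAGACC was in 8.60% and 1.33% (odds ratio 6.99, adjusted exact p = 3.96e-07, at most 0.00145 over 9 alternatives). TTTTTT was in 27.2% and 16.4% (odds ratio 1.90, adjusted exact p = 1.72e-04), a call lost in the strongest peaks of replicate 1 alone (odds ratio 1.40, adjusted exact p = 0.0623). CCCGCC was in 8.60% and 3.54% (odds ratio 2.56, adjusted exact p = 0.00295), a call lost in the upper part of the list, above its median signal (odds ratio 1.96, adjusted exact p = 0.190). GGGCGG was in 8.77% and 4.65% (odds ratio 1.97, adjusted exact p = 0.0279), and only 2 of 9 alternatives kept it, with adjusted p between 0.00240 and 0.519. Median GC content in the 101 bp was 45.5% for members, 45.5% for divergent peaks and 46.5% for peaks outside promoters.

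Because a member has genes on one strand only, the strand of a motif can be read against the gene. CCAAT stood on the coding strand alone in 68 members and on the other strand alone in 24, which is 73.9% on the coding strand (interval 63.7 to 82.5). GCGTCTC was on the coding strand alone in 46 and on the other alone in 28 (62.2%, 50.1 to 73.2), and CCCGCC in 35 and 16 (68.6%, 54.1 to 80.9). The GA repeat was mostly read as TCTCTC, with GAGAGA on the coding strand alone in 40 members and on the other alone in 72 (35.7%, 26.9 to 45.3). CGAGACC was on the coding strand alone in 17 and on the other alone in 33 (interval 21.2 to 48.8%). TTTTTT was on the coding strand alone in 93 and on the other alone in 61 (60.4%, 52.2 to 68.2). The intervals of GGGCGG (39.2%, 25.8 to 53.9), TTGCAC (52.9%, 38.5 to 67.1), TTTCAG (41.9%, 24.5 to 60.9) and TGATAA (45.5%, 24.4 to 67.8) held both directions. The median match lay 195 bp upstream of the 5′ end for CCAAT, 157 bp for GAGAGA and 228 bp for CGAGACC. Strand shares are given with no test. They were counted for members only, so whether they differ from those of all promoters or of the other classes is unknown. CCAAT itself was in 16.5% of members and 15.1% of divergent peaks, and it was no more frequent in members than in all promoters.

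None of the 14 motifs was in most of the 15 strongest members. Among these, CGAGACC was in the window at W08E12.7, GCGTCTC at F36A2.7 and sec-61.G, and GAGAGA at hsp-1 and sec-61.G. CCAAT was at dld-1, sec-61.G and eelo-2, TATAAA at cdc-48.1 and tos-1, and CACGTG at tos-1. TTTTTT was at eelo-2 and W08E12.7, GGGCGG at rps-28 and CCCGCC at cox-5B. The windows at rpl-3, tasp-1, rpl-35, iff-2 and cox-5A held none of the 14, as did 136 of all 593 members. Because no motif was common to most of the 15, 2080 words of 6 bases, each counted with its reverse complement, were compared between quintiles of members by signal. This description was chosen after the sequences were seen, the words were picked for the difference, and no test was made. The 6 words with the largest gap were rich in G and C. CGAGAC was in 26.1% of the strongest quintile and 6.72% of the weakest, with 13.6%, 13.4% and 16.9% in the quintiles between, counted from the weakest. GCGCAC was in 22.7% and 7.56%, AAGCGC in 19.3% and 4.20%, AGCGCG in 25.2% and 11.8%, CAAGCG in 15.1% and 1.68%, and GAGACC in 19.3% and 5.88%. All promoters held each of them in between 1.71% and 3.00% of windows. Each of the 6 words had a higher share at divergent peaks than at members, as for CGAGAC with 15.3% of members, 18.6% of divergent peaks and 11.3% of peaks outside promoters, and for AGCGCG with 15.3%, 17.6% and 7.74% in that order. CGAGAC and GAGACC overlap each other and the motif CGAGACC. At least 1 of the 6 was in 78 members of the strongest quintile (65.5%), in 33 of the weakest (27.7%) and in 10.1% of all promoters. In the printed sequences the string GTGCGCGCT occurred at both tos-1 and hsp-1, while iff-2 and sec-61.G held none of the 6. GC content moved with signal, with a median of 48.5% in the strongest quintile and 43.6% in the weakest, and its part in these shares was not tested.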

How the data were processed

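The files were peak lists on build ce11 from 2 biological replicates. Per the labels and the deposited text listings, peaks were called against a control alignment and both replicates were passed to the IDR procedure. The sources used here give neither the aligner nor the caller, nor the cutoff of the IDR procedure. Signal values are those the authors deposited with each peak and were used without rescaling. Read counts were not analysed here, so depth is unknown, and intervals (95%) cover counting error only. All peaks fitted within the chromosomes of WBcel235, and 5′ ends, genes and exons came from Ensembl release 115. Coordinates are 1-based. The summit was within 1 bp of the peak midpoint for 94.3% of members.

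The members, the gene lists (by symbol) and the motifs were chosen with earlier results of these data known, and the splicing and cell cycle lists were trimmed of misplaced symbols after counts were seen. For position and signal, two-sided Fisher's exact tests were adjusted (Benjamini-Hochberg) over 4 comparisons, and for motifs over 14. Named genes were the 15 strongest members, the strongest in each centre and pair of arms, up to 4 per gene list, the weakest 3, and those nearest the window edges. Further list members (eif-3.G, cct-2, the mcm genes, nhr-49) and the members with more than 1 peak were named after their values were seen. The class rule, the Fisher tests with their adjustment and the motif matching were checked on simulated positions, counts and sequences. The other steps were not checked in this way. Tests ran in scipy 1.17.1 with pandas 2.3.3 and numpy 2.4.6 under Python 3.11.15, and plots in matplotlib 3.10.9.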

Additional observations from a re-analysis of the deposited data

How the results depend on the processing

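Replicate depth is unknown, the summit is mostly the peak midpoint, and p-values treat peaks as units. No paired analysis was possible because there is a single group. The number of members was 284 among IDR peaks above the median signal and between 552 and 592 with 1 replicate left out. The odds ratio of the central share against divergent peaks, 0.972, turned to 1.06 with a window of 300 bp and 100 bp, 1.01 with 1000 bp and 200 bp, and 1.13 with the central 40%, and lay between 0.897 and 1.04 with 1 replicate left out. Against peaks outside promoters it turned to 1.15 with 1000 bp and 200 bp (0.893 to 0.912 with 1 replicate left out). None of these passed the threshold. The odds ratio of the share above the median signal against divergent peaks passed with 1000 bp and 200 bp (0.690), with windows of all genes but piRNA genes deciding the strand (0.680) and with the upper quartile (0.647), and was between 0.813 and 0.875 with 1 replicate left out. Against peaks outside promoters it passed with the upper quartile (1.44) and with either replicate left out (1.42 to 1.62). The count of motifs that differed from divergent peaks, 0, was 2 with 300 bp and 100 bp, 3 with 1000 bp and 200 bp, 2 with the peak midpoint and 3 within 100 bp of the summit, and 0 with either replicate left out. That against peaks outside promoters, 5, was 3 among IDR peaks above the median signal, 8 within 100 bp of the summit and 5 with either replicate left out. The median distance of -188 bp was -159 with 300 bp and 100 bp, -227 with 1000 bp and 200 bp, -184 with windows of all genes, -195 among peaks above the median signal, and between -187 and -184 with 1 replicate left out. The share overlapped in each replicate was 95.1% with summits within 100 bp and 97.5% with at least 50% of the peak covered. The cause of these shifts was not tested. Of the 593 members, 446 stayed in the class with 300 bp and 100 bp and 492 with 1000 bp and 200 bp. With the outermost 5′ end of each gene 535 stayed, and with windows of all genes 541. Without replicate 1, 83.6% of members were overlapped by a one-directional peak among the strongest of replicate 2. Without replicate 2 the share was 82.3%, against the strongest of replicate 1.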

Other observations

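A few genes carried more than 1 member. There were 8 genes with 2 members and 1, C34B4.2, with 3 (signals 99.9, 80.2 and 74.4). The pairs included egl-30, which encodes a Gq alpha subunit (243 and 106), gsa-1, which encodes a Gs alpha subunit (126 and 78.8), mars-1 (198 and 83.7), mog-4 (164 and 120) and nurf-1, a chromatin remodelling gene (182 and 153). The pairs at mars-1 and mog-4, and the stronger 2 of the 3 at C34B4.2, each matched a single peak in either replicate list. The genes nurf-1, jmjd-1.2 and F53C11.5 had both a member and a divergent peak.

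Non-coding genes other than piRNA genes had a window at 67 members (11.3%), and at 50 of these (8.43% of members) one lay on the strand opposite to the coding gene. Most were of the class ncRNA (48 members), with snoRNA genes at 11, tRNA genes at 6 and microRNA genes at 3. These shares were not counted for all promoters or for the other classes. Whether they differ from the density of the annotation is therefore unknown.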
